A study of Mus musculus with 23 samples.

Results

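The nuclear-encoded subunit genes of oxidative phosphorylation (OXPHOS) were taken by symbol. A member was a protein-coding gene whose symbol begins as Ndufa, Ndufb, Ndufc, Ndufs or Ndufv with a number, as Cox followed by a number from 4 to 8 and a letter a to c, or as Uqcr or Atp5, or is Sdha to Sdhd, leaving out assembly factors and pseudogenes. This gave 83 members of the 55573 genes in the count files, 36 in complex I, 4 in complex II, 8 in complex III, 17 in complex IV and 18 in complex V. Ndufa4 was placed in complex IV, where the protein resides. Its paralog Ndufa4l2 was kept in complex I by its symbol alone. The symbol Atp5o belonged to 2 identifiers, and the one with counts is meant here. The spelling rule did not take Cox4i1, Cox4i2, Ndufab1, Cyc1, Atpif1 and Usmg5, which are described apart from the members. The 37 genes of the mitochondrial chromosome had 0 counts in every library, so the mitochondrially encoded subunits are not analysed here.

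Oxidative phosphorylation is the last stage of respiration in the inner mitochondrial membrane. Complex I (NADH dehydrogenase) and complex II (succinate dehydrogenase) pass electrons to ubiquinone, complex III hands them to cytochrome c, complex IV (cytochrome c oxidase) passes them to oxygen, and complex V (ATP synthase) makes ATP from the proton gradient built on the way. Most subunits are encoded in the nucleus and imported, while a core of complexes I, III, IV and V is made from mitochondrial DNA. Pluripotent stem cells are known for a strongly glycolytic metabolism with immature mitochondria, and OXPHOS genes are studied in them as a readout of that state.

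The RNA came from mouse embryonic stem cells (ESCs) grown on embryonic fibroblast feeders in serum with LIF, and was read by QuantSeq, which sequences the 3′ end of each polyadenylated transcript. R1 ESCs were wild type (WT) or homozygous knockouts (SET-/-, lines KO1 and KO2) for SET, which binds histones as a chaperone and restrains the PP2A phosphatase. Set 1 held 2 WT (1a, 1b) and 4 KO samples (1c and 1d of KO1, 1e and 1f of KO2). Set 2 held 2 WT (2a, 2b), 4 KO samples (2c and 2d of KO1, 2e and 2f of KO2) and, after treatment with retinoic acid (RA), a differentiation signal, for 4 d, 1 WT (2g) and 2 KO samples (2h, 2i, both titled KO1). KH2 ESCs carried HA-tagged SETa under a doxycycline-inducible promoter and were sampled without (2 samples) and with (2 samples) 1 μg/mL doxycycline (Dox) for 24 h, so both KH2 groups carry the transgene and the KH2 line has no group without it. Libraries that share a title code were summed, which turned 23 libraries into 19 samples. The labels name no separate cultures, so p-values weigh differences only against sample-to-sample spread, and this may be of technical origin.

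Set 1 samples held 806412 to 1445013 assigned counts and untreated set 2 samples 2833064 to 10217040. RA samples had 3904924 to 5047363 counts, and those of KH2 cells 4848478 to 6472695. Levels are CPM, the counts relative to a library's total scaled by TMM, and 3 counts, the limit a count of 0 allows, stood for 0.294 to 3.72 CPM. Set itself was at 990.6 ± 30.7 CPM (SD, n = 2) in set 1 WT and 21.5 ± 3.54 (n = 4) in set 1 KO samples, but at 1304.1 ± 163.3 (n = 2) and 438.3 ± 131.8 (n = 4) in set 2, so the loss at the 3′ end was partial there. A tag outside an edited stretch does not test the knockout, and the edited stretch was not analysed here. In KH2 cells Set was at 992.0 ± 42.3 CPM without and 1200.9 ± 104.5 with Dox (n = 2 each), and its difference did not pass the test (log2 fold change 0.28, SE 0.10, edgeR adjusted p = 0.175). How far these 3′ counts see the SETa-HA transgene was not tested. All 10 ESC markers were at 1 CPM or more in every untreated group. For the untreated set 2 libraries the mean of WT, KO1 or KO2 was subtracted from each gene before a principal component analysis. The libraries were split at the largest gap on the first component (34.7% of the remaining variance) into 2 groups, called sub-batches here. The labels name no batch, so fits within these groups rest on a split taken from the same counts. WT, KO1 and KO2 each had libraries on both sides, which follows from the subtraction. Set 1 KO sample 1d stood apart from the other KO samples in the members described below.

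The members together took 1.93 to 2.00% of all counts in set 1 WT and 1.38% in the WT RA sample. Of the 83 members, 77 passed the filter on low counts over both sets, and 50 of these averaged at least 100 CPM over the 19 samples. CPM of 3′ tags are not divided by length, since each transcript gives 1 tag site, but they still depend on how well that site can be mapped. In complex V, Atp5g3, which encodes the membrane c subunit of the rotor, averaged 2377.2 CPM over the untreated R1 samples, and Atp5s, a coupling factor, averaged 5.47 CPM. Among the tested members of complex I the averages ran from 361.0 CPM for Ndufb8 to 5.17 for Ndufa4l2, in complex II from 169.9 for Sdha to 65.6 for Sdhd, in complex III from 557.1 for Uqcrh to 16.5 for Uqcrc2, and in complex IV from 574.7 for Cox6c to 20.7 for Cox7a1. Of the isoforms known from muscle or testis, 4 were at or near the floor. Cox6a2 had 2 counts in all libraries together, Cox8b 4, Cox8c 62 and Cox7b2 68, and the sums of 7 muscle markers were at most 12.4 CPM in any sample.

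Some members share transcript ends with other genes, which lowers or blurs their counts. At least 30% of the 50-base words in the last 300 bases also occurred in other genes' transcripts for Atp5l (70.1%), Cox7c (65.2%), Atp5h (59.2%), Atp5g2 (55.5%), Ndufs3 (53.0%), Ndufs5 (47.8%), Atp5o (40.9%), Uqcrb (40.6%), Atp5g1 (36.0%) and Cox6c (34.9%), so their levels are uncertain. The last 300 exonic bases of 11 members overlapped another gene in the annotation, among them Uqcrc2 (300 bases, under Pdzd9), Cox5a (269 bases, under Gm26631) and Ndufb6 (257 bases, under Smim27). These 3 partners lie on the other strand. The counting command in the file headers sets no strand option, so reads in such an overlap are ambiguous between both genes and may have gone uncounted.

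Promoter sequences were at hand for 68 of the 83 members (73 promoters, RefSeq GRCm38.p6, from 250 bases before to 50 bases after each start). Motifs were searched on both strands as exact letters, and none of them contains another. The NRF1 motif GCGCANGCG, bound by a regulator of nuclear respiratory genes, stood in 28.8% of member promoters, against 13.6% of the promoters of genes tested over both sets and 6.2% of all 32851 promoters. The ETS motif CCGGAAG, which GABP can bind, stood in 21.9% of member promoters (17.8% of tested genes, 8.9% of all), and the YY1 motif AAGATGGC in 13.7% (4.5% of tested genes, 2.7% of all). The nuclear receptor motif AAGGTCA stood in 11.0% of member promoters (3.1% and 4.7%) and the Sp1 motif GGGCGG in 39.7% (64.9% and 35.7%). The E-box CACGTG stood in 9.6% (10.1% and 7.2%) and the CCAAT box CCAAT in 42.5% (37.8% and 37.4%). A match is a description of letters and does not show a bound site.

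Of the promoters below, each given from 100 bases before to 30 bases after the start, 5′ to 3′ on the gene's strand, Ndufc2 belongs to the member with the deepest drop in KO cells, Cox6b2 and Cox6b1 to an isoform pair that parted after RA, Uqcr11, Ndufs6 and Sdha to members that fell after RA in WT cells, and Atp5j to a member that fell in KO cells. Capitals mark matches of the NRF1, ETS or YY1 motif on either strand. Atp5j has another promoter (chr16:84835576-84835875, the whole window) with 0 matches of these motifs, and the one printed was picked because it has matches.
Ndufc2 (chr7:97399903-97400032, plus strand): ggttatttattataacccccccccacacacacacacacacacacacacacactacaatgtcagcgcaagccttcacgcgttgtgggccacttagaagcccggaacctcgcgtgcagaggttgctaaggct
Atp5j (chr16:84834947-84835076, minus strand): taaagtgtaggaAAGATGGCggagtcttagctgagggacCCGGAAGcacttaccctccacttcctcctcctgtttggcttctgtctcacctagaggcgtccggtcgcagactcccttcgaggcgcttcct
Cox6b2 (chr7:4753065-4753194, minus strand): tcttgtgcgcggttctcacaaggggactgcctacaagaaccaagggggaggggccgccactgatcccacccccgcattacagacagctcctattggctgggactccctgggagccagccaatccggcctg
Cox6b1 (chr7:30626085-30626214, minus strand): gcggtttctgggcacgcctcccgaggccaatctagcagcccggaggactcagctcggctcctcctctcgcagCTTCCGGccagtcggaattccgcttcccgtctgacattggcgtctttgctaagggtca
Uqcr11 (chr10:80406792-80406921, minus strand): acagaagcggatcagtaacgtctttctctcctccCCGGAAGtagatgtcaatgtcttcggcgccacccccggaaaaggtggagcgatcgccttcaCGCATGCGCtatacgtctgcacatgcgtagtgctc
Ndufs6 (chr13:73328453-73328582, minus strand): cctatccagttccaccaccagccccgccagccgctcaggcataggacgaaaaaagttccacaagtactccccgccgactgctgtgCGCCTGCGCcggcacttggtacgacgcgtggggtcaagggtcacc
Sdha (chr13:74350211-74350340, minus strand): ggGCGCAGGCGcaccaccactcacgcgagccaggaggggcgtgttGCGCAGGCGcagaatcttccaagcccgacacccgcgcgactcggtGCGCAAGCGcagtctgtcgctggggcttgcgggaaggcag
Sdha has 3 NRF1 matches in its stretch, and Uqcr11 and Ndufs6 have 1 each. No match of these 3 motifs lies in the printed stretch of Ndufc2 or Cox6b2, which says only that those letters are not in this window. Of the tested members with a promoter, an NRF1 match was found in 11 of the 30 that fell after RA in WT cells (36.7%) and in 8 of the 35 others (22.9%). An ETS match was found in 4 (13.3%) and 12 (34.3%), and a YY1 match in 7 (23.3%) and 3 (8.6%).

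KO and WT cells were compared first, to see how the OXPHOS genes stood without SET. In KO cells the members moved little, and the called ones all went down. Over both sets, with set as a covariate, 11 of 77 tested members fell and 0 rose, against 8.52% of all 11950 tested genes that fell and 10.1% that rose. By edgeR's unadjusted p under 0.05, 22 members (28.6%) were lower and 0 higher, against 15.1% and 16.4% of all genes, and DESeq2 called 11 lower and 0 higher. The median log2 fold change was -0.13 over the tested members and -0.02 over all genes, so the usual member differed by little, and 61 of the 77 were on the lower side. Complex I gave 7 of the 11 calls (of 35 tested), complex V 2 (of 17), complexes II (of 4) and III (of 8) 1 each, and complex IV 0 (of 13), where 4 members were below an unadjusted p of 0.05 and DESeq2 called 0.

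Ndufc2, an accessory subunit of the membrane arm of complex I, changed most. Its set 1 levels were 214.7 and 183.8 CPM in WT and 63.1, 74.2, 82.1 and 80.3 CPM in set 1 KO samples 1c to 1f. In set 2 the WT samples had 82.6 and 110.4 CPM and the KO samples 62.6, 59.1, 64.4 and 60.1 CPM (2c to 2f). No KO sample reached a WT sample in either set, and the KO samples of both sets lay close together while set 1 WT was far above set 2 WT. The log2 fold change was -1.01 (SE 0.13, edgeR adjusted p = 4.05e-06) over both sets, -1.39 (SE 0.17, adjusted p = 4.12e-05) in set 1 and -0.65 (SE 0.13, adjusted p = 0.00245) in set 2. The difference of these 2 effects was 0.74 (SE 0.21) and did not pass (adjusted p = 0.121). Within the set 2 sub-batches the log2 fold change was -0.72 (adjusted p = 0.0115) and -0.44 (adjusted p = 0.0223), and without WT sample 2b it was -0.44 and not called (adjusted p = 0.239).

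Ndufs7, the subunit that carries the last iron-sulphur cluster before ubiquinone, was the other member called in each set. In set 1 its WT levels were 82.1 and 88.1 CPM against 29.4, 61.1, 48.8 and 52.7 CPM in samples 1c to 1f, and at 66.1 and 55.7 CPM in set 2 WT against 36.1, 43.2, 39.7 and 35.3 CPM in samples 2c to 2f. The groups did not overlap in either set, and the WT levels of the sets were closer than for Ndufc2. Its log2 fold change was -0.71 (SE 0.13, edgeR adjusted p = 0.000364) over both sets, -0.79 (SE 0.22, adjusted p = 0.0272) in set 1 and -0.62 (SE 0.14, adjusted p = 0.00952) in set 2. In set 1 the call was lost by DESeq2 (adjusted p = 0.0551) and by edgeR without any one of 1a, 1b, 1c or 1e (largest adjusted p 0.131), and in set 2 without 2a (adjusted p = 0.169) or within sub-batch A (log2 fold change -0.59, adjusted p = 0.0951).

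The other called members of complex I were accessory or flavoprotein-arm subunits with smaller changes over both sets. Ndufc1, the small partner of Ndufc2, had a log2 fold change of -0.40 (SE 0.10, edgeR adjusted p = 0.00572), and Ndufv2, an iron-sulphur subunit of the NADH-binding arm, of -0.43 (SE 0.12, adjusted p = 0.0145). Ndufv2 had 249.5 and 212.9 CPM in set 1 WT samples and 116.5, 125.7, 145.5 and 180.0 CPM in samples 1c to 1f, while in set 2 its WT (99.0 and 105.5 CPM) and KO samples (84.4 to 105.4 CPM) lay side by side. It was called in set 1 (-0.69, SE 0.18, adjusted p = 0.0207) and not in set 2 (-0.17, SE 0.12, adjusted p = 0.434), and the difference of the sets did not pass (0.51, SE 0.22, adjusted p = 0.389). Ndufa6 (-0.34, adjusted p = 0.0209), Ndufa7 (-0.29, adjusted p = 0.0368) and Ndufv3 (-0.31, adjusted p = 0.0391), all accessory subunits, passed by less. Ndufa7 was also called in set 2 (-0.37, SE 0.10, adjusted p = 0.0255), where within sub-batch B it was at -0.13 (adjusted p = 0.394). The NADH-binding core subunit Ndufv1 was not called in either set (-0.21 and -0.13).

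In complexes II, III and V the called members were an anchor of complex II, a small subunit of complex III and a pair of ATP synthase subunits. Sdhc, a membrane anchor of succinate dehydrogenase, stood at 173.2 and 212.9 CPM in set 1 WT and at 114.6 to 151.8 in KO, but at 160.3 and 184.4 CPM in set 2 WT against 134.3 to 175.4 CPM in KO, where the groups overlapped. Its log2 fold change over both sets was -0.33 (SE 0.11, edgeR adjusted p = 0.0323). The catalytic subunits Sdha and Sdhb and the other anchor Sdhd were not called. Uqcrb, which binds ubiquinone in complex III, stood at 369.6 and 324.0 CPM in set 1 WT against 230.7, 237.7, 248.7 and 282.9 CPM in KO, and at 212.2 and 224.5 CPM in set 2 WT against 159.9, 186.8, 167.0 and 180.9 CPM in KO. These groups did not overlap, and the log2 fold change was -0.40 (SE 0.09, adjusted p = 0.00353), for a gene whose 3′ end is among the partly shared ones above. Atp5j, the coupling factor 6 subunit of the stator stalk, stood at 241.2 and 177.0 CPM in set 1 WT against 101.2, 71.5, 117.0 and 149.9 CPM in KO, and at 118.7 and 139.2 CPM in set 2 WT against 100.6, 110.8, 117.5 and 104.0 CPM in KO. Its groups did not overlap either, with a log2 fold change of -0.57 (SE 0.16, adjusted p = 0.0165). Atp5j2, the f subunit of the ATP synthase membrane part, was at -0.28 (SE 0.10, adjusted p = 0.0460). Only Ndufc2, Ndufs7 and Uqcrb were called in all 18 alternative fits run over both sets.

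Taken sample by sample, 10 of the 77 tested members had every KO sample below every WT sample in both sets, against 6.72% of all tested genes. They were Ndufc1, Ndufc2, Ndufs7, Ndufa6, Ndufv3, Uqcrb, Uqcrc2, Uqcrq, Atp5j and Atp5j2. For 0 members did every KO sample lie above every WT sample in both sets.

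**Figure D1:**
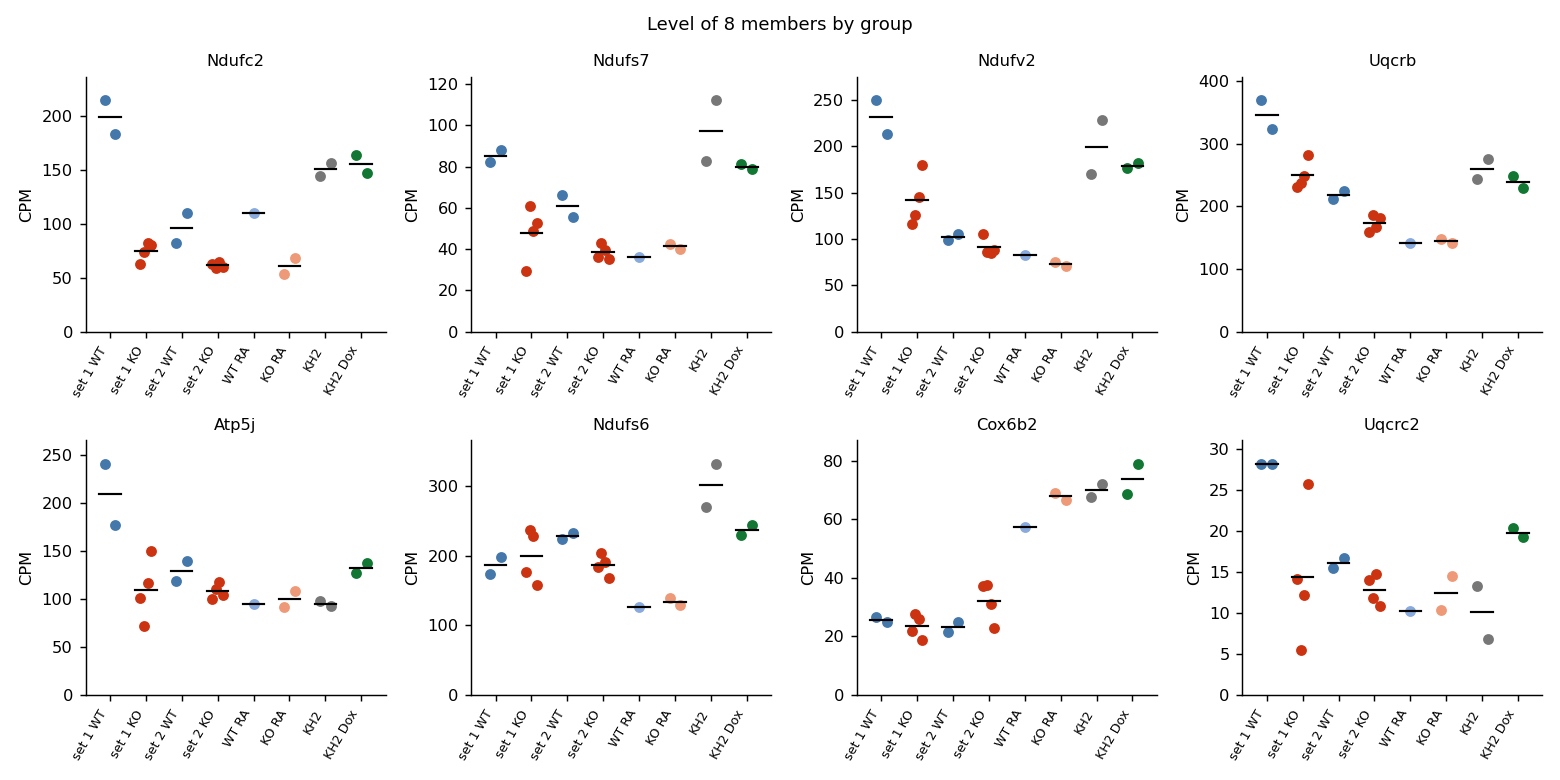
Level in CPM (y axis, linear from 0) of 8 members in each sample, by group (x axis), where points are samples and the black bar is their mean. Ndufc2, Ndufs7, Uqcrb and Atp5j have all KO samples below all WT samples in both sets, Cox6b2 is higher after RA, and the set 1 KO samples of Uqcrc2 spread from 5.5 to 25.7 CPM.

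In set 1 alone, 5 of 75 tested members fell (Ndufc2, Ndufs7, Ndufv2, Atp5j and Uqcrfs1) and 0 rose, against 5.10% of 9764 genes that fell and 7.19% that rose. Uqcrfs1, the Rieske iron-sulphur protein of complex III, had levels of 292.6 and 295.8 CPM in WT samples and of 185.0, 153.9, 216.2 and 229.0 CPM in KO (log2 fold change -0.57, SE 0.18, edgeR adjusted p = 0.0429). Atp5j was at -0.91 (SE 0.25, adjusted p = 0.0307). The count was 1, Ndufc2, when WT sample 1a or KO sample 1c or 1e was left out, and 8 without 1f. In set 2 alone, 3 of 77 tested members fell (Ndufc2, Ndufs7 and Ndufa7) and 0 rose, against 3.55% and 5.64% of 12681 genes. Higher members at an unadjusted p under 0.05 numbered 0 in set 1 and 1 in set 2, and DESeq2 called 0 higher in either. The set 2 count of 3 called members was smaller without 2a or without 2b, which leaves 1 WT sample. Without 2f 8 members fell and 2 rose, and sub-batch A alone gave 1 called member and sub-batch B alone 7. Over both sets the count of 11 was 4 without 1a and 7 without 1e, 2b, 2e or 2f. By the edgeR interaction, 0 of 77 members had KO effects that differed between sets, against 0.828% of genes, with 5 members (6.49%) at an unadjusted p under 0.05, against 10.7% of genes (Ndufb6, Ndufc2, Uqcrfs1, Atp5j and Ndufv2, all with the lower KO log2 fold change in set 1) and 0 called by DESeq2.

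Set 1 KO sample 1d differed from the other KO samples in a few members. Cox5a was at 0.687 CPM in 1d and at 26.3 to 27.2 CPM in the other 3 set 1 KO samples, against 42.3 and 41.0 CPM in WT. Sdhd was at 8.93 CPM against 107.3 to 159.3, Cox7c at 164.2 against 377.7 to 441.6, Ndufb6 at 11.0 against 25.2 to 38.1 and Uqcrc2 at 5.50 against 12.2 to 25.7 CPM. These 5 were the members at least 2-fold lower in 1d on the log2(CPM + 1) scale, 0 members were as much higher, and their last 300 transcript bases held 35.7 to 39.7% GC, in a range of 29.3 to 59.0% over the 77 members. Across the 77 members the difference of 1d from the other KO samples went with that GC content (Pearson r = 0.54, Spearman rho = 0.63), and across 11149 tested genes r was 0.28, as descriptions over genes that are not independent. For the set 1 KO effect r over 75 members was 0.37, and it was 0.15 with 1d left out, and the part of GC content in the members' differences was not tested. For samples 1c, 1e and 1f the same r over members was -0.21, -0.44 and -0.53, each against a mean that includes 1d. Without 1d, 13 of 77 tested members fell over both sets, against 8.39% of 12785 genes, and 6 of 75 in set 1, against 5.93% of 9624 genes. The 11 members called over both sets were all called without 1d.

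**Figure D2:**
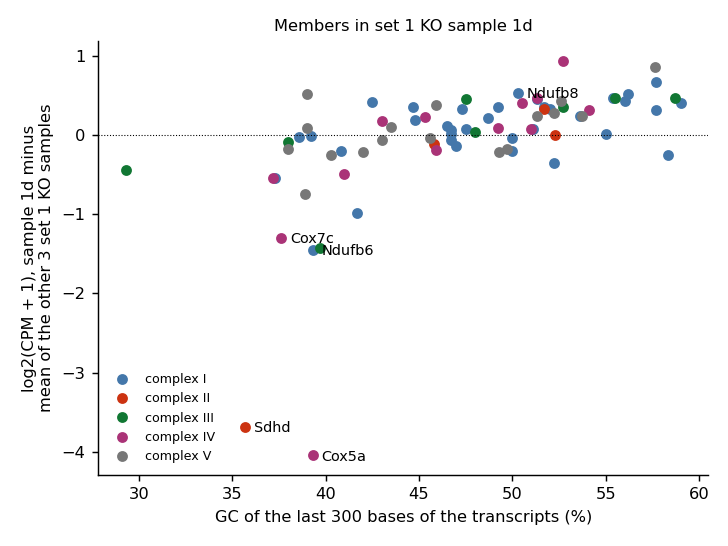
Difference in log2(CPM + 1) of set 1 KO sample 1d from the mean of the other 3 set 1 KO samples (y axis) against the GC content of the last 300 transcript bases (x axis, %), with 1 point for each of 77 tested members coloured by complex. Cox5a and Sdhd lie lowest, and the 5 members at least 2-fold lower have between 35.7 and 39.7% GC.

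Summed over members, the complexes were slightly lower in KO cells, and these sums are given as a description. In set 1, complex I summed to 4649.1 ± 79.3 CPM (SD) in the 2 WT and 4061.1 ± 269.5 in the 4 KO samples, complex II to 655.7 ± 73.7 and 525.0 ± 54.8, complex III to 1861.2 ± 61.8 and 1654.8 ± 123.3, complex IV to 3492.0 ± 53.5 and 2928.2 ± 49.0, and complex V to 7408.8 ± 247.1 and 6916.1 ± 382.3. The KO samples lay below the WT samples for complexes I to IV, and overlapped them for complex V. In set 2, complex I summed to 5036.1 ± 141.8 CPM in WT and 4649.7 ± 174.8 in KO, complex II to 504.6 ± 14.5 and 443.3 ± 27.8, complex III to 2161.6 ± 7.88 and 2003.8 ± 77.4, complex IV to 2740.7 ± 88.4 and 2639.1 ± 175.2, and complex V to 7756.5 ± 95.3 and 7513.5 ± 418.8. There the groups stayed apart for complexes I to III and overlapped for IV and V. Over all members the log2 ratio of KO to WT was -0.17 in set 1 and -0.08 in set 2. Pairs of libraries of 1 code differed in this sum by up to 0.21 on the log2 scale.

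**Figure D3:**
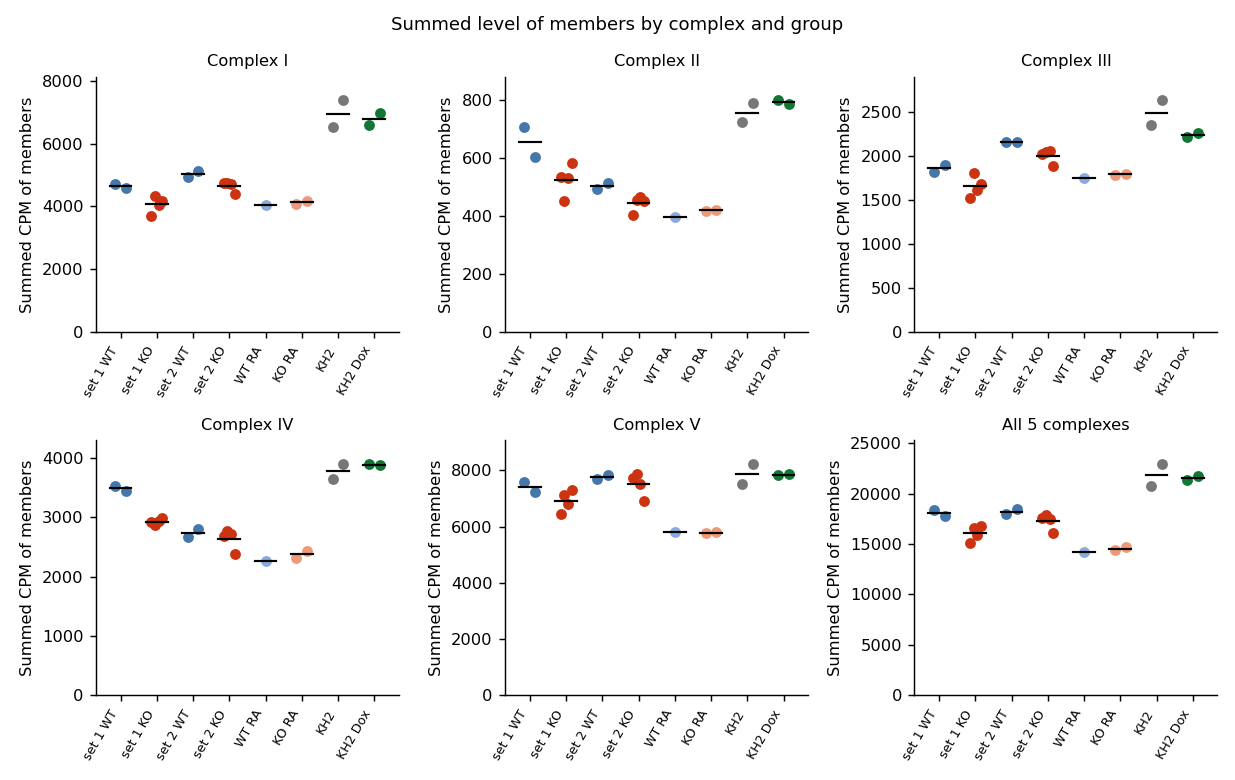
Summed CPM of the members of each complex (y axis, linear from 0) in each sample by group (x axis), where points are samples and the black bar is their mean. Within set 2 the 3 RA samples lie below all untreated samples for complexes I, III and V, and the KH2 samples have the largest sum over all members, between 20772.8 and 22966.4 CPM.

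Markers of other cells moved with the KO groups too. The summed level of 22 feeder fibroblast markers was 122.3 to 146.7 CPM in set 1 WT (15 of 22 at a mean of 1 CPM or more, with Dcn, Lum and Postn at 0) and 463.8 to 882.5 CPM in set 1 KO (19 of 22, Lum at 0), and 578.5 to 777.1 CPM in set 2 WT (20 of 22, Lum at 0) and 1089.7 to 1732.3 CPM in set 2 KO (21 of 22). The 13 extraembryonic endoderm markers summed to 959.3 to 1101.5 CPM and 2295.5 to 3097.6 CPM in set 1 WT and KO, and to 1305.1 to 1318.6 and 2018.5 to 2413.7 CPM in set 2. The 10 ESC markers summed to 3706.4 to 4303.1 and 1731.4 to 2121.5 CPM in set 1, and to 2812.3 to 3137.9 and 1812.7 to 2176.2 CPM in set 2. The part of these marker shifts in the members' changes was not tested, and in bulk RNA fewer cells of a type and less RNA per cell cannot be told apart.

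RA treatment was followed by a broader fall. In WT cells 36 of 78 tested members fell after 4 d of RA, against 22.5% of all 14659 tested genes, and 1 rose, against 24.8%. In KO cells 35 of 78 fell, against 26.8% of genes, and 2 rose, against 28.3%. The median log2 fold change of the tested members was -0.41 in WT and -0.23 in KO, with -0.03 and -0.01 over all genes. Each complex had fallers in WT: 16 of 35 tested in complex I, 1 of 4 in complex II, 5 of 8 in complex III, 5 of 14 in complex IV and 9 of 17 in complex V. In KO the counts were 15, 0, 4, 6 and 10, with 0 members of complex II at an unadjusted p under 0.05 and 0 called by DESeq2. The WT arm has 1 RA sample, so its spread is borrowed from the other groups of the fit. The KO RA samples, both titled KO1, were compared with the mean of untreated KO1 and KO2. A difference between these lines can thus enter the KO fold changes. The KO count fell to 23 lower members without RA sample 2h.

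In complex I, Ndufs6, an accessory subunit near the NADH arm, stood at 224.1 and 232.6 CPM in untreated WT and 127.0 CPM after RA, and at 183.9, 203.8, 191.5 and 168.3 CPM in untreated KO and 138.8 and 129.4 CPM after RA. Its log2 fold change was -0.87 (SE 0.15, edgeR adjusted p = 3.30e-05) in WT and -0.52 (SE 0.11, adjusted p = 0.000146) in KO. Ndufb5, a membrane-arm subunit, went from 236.1 and 234.8 to 133.9 CPM in WT (-0.83, adjusted p = 3.86e-05), and from 200.5 to 224.0 CPM to 149.0 and 151.6 CPM in KO (-0.54, adjusted p = 6.74e-05). Ndufv3 went from 79.3 and 84.9 to 42.5 CPM in WT (-0.97, SE 0.19) and from 66.3 to 77.4 CPM to 41.3 and 39.2 CPM in KO (-0.89, SE 0.13, adjusted p = 2.12e-06). Ndufb8 went from 498.5 and 495.2 to 324.3 CPM in WT (-0.64) and from 471.1 to 525.9 CPM to 324.5 and 286.4 CPM in KO (-0.73, SE 0.10, adjusted p = 9.01e-07). In each of these members the RA samples lay below all untreated samples of their genotype. Ndufa7 fell as well (-0.64 in WT and -0.33 in KO). Ndufa3, a small accessory subunit, rose in KO, from 69.6 to 80.1 CPM to 103.9 and 100.7 CPM (0.38, SE 0.12, adjusted p = 0.00685).

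In complex II the flavoprotein subunit Sdha was the 1 member called, in WT, going from 192.8 and 198.9 to 142.1 CPM (log2 fold change -0.48, SE 0.15, edgeR adjusted p = 0.00808). In complex III, Uqcr11 went from 145.8 and 155.1 to 90.3 CPM in WT (-0.76, SE 0.16, adjusted p = 0.000269), and from 135.3 to 165.3 CPM to 115.8 and 117.9 CPM in KO (-0.39, SE 0.11). Uqcr10 fell in both (-0.68 and -0.57), and so did the core protein gene Uqcrc1 (-0.65 and -0.37) and Uqcrb (-0.65 and -0.30).

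In complex IV, Cox7b, a small subunit, went from 245.4 and 258.7 to 158.7 CPM in WT (log2 fold change -0.69, SE 0.14, edgeR adjusted p = 0.000284) and from 219.9 to 232.7 CPM to 154.0 and 153.3 CPM in KO (-0.60, SE 0.10). Cox7c fell by 1.00 (SE 0.23) and 0.83 (SE 0.16) on the log2 scale, Cox6c by 0.49 and 0.35, and Cox8a by 0.45 and 0.43. In complex V, Atp5a1, the catalytic-head α subunit, went from 1328.0 and 1337.8 to 864.1 CPM in WT (-0.65, SE 0.14, adjusted p = 0.000412) and from 1128.2 to 1435.7 CPM to 872.7 and 953.4 CPM in KO (-0.57, SE 0.10). Atp5o, of the stator, went from 583.0 and 551.4 to 357.0 CPM in WT (-0.69, SE 0.14) and from 524.4 to 579.7 CPM to 366.3 and 326.3 CPM in KO (-0.70, SE 0.10, adjusted p = 1.39e-06). The β subunit Atp5b fell less (-0.42 and -0.41). Of the 3 genes for the identical mature c subunit, Atp5g1 fell by 1.22 and 0.77 and Atp5g3 by 0.40 and 0.44 on the log2 scale, while Atp5g2, at 3.17 to 9.03 CPM in set 2, was not called.

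All 12 members named per genotype, those with the smallest adjusted p, were called in each alternative fit of their comparison (12 fits in WT, 14 in KO). The calls of the 2 genotypes had 27 lower members in common, 75.0% of the WT list and 77.1% of the KO list, against 85.0% and 71.5% for all genes that fell. The RA effect differed between KO and WT for 0 of 78 members by the edgeR interaction, against 1.09% of genes. At an unadjusted p under 0.05 there were 5, or 6.41% against 10.7% of genes (Ndufc1, Ndufs7, Uqcrq, Ndufs4 and Ndufa6, all with the higher RA log2 fold change in KO), and DESeq2 called 0.

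**Figure D4:**
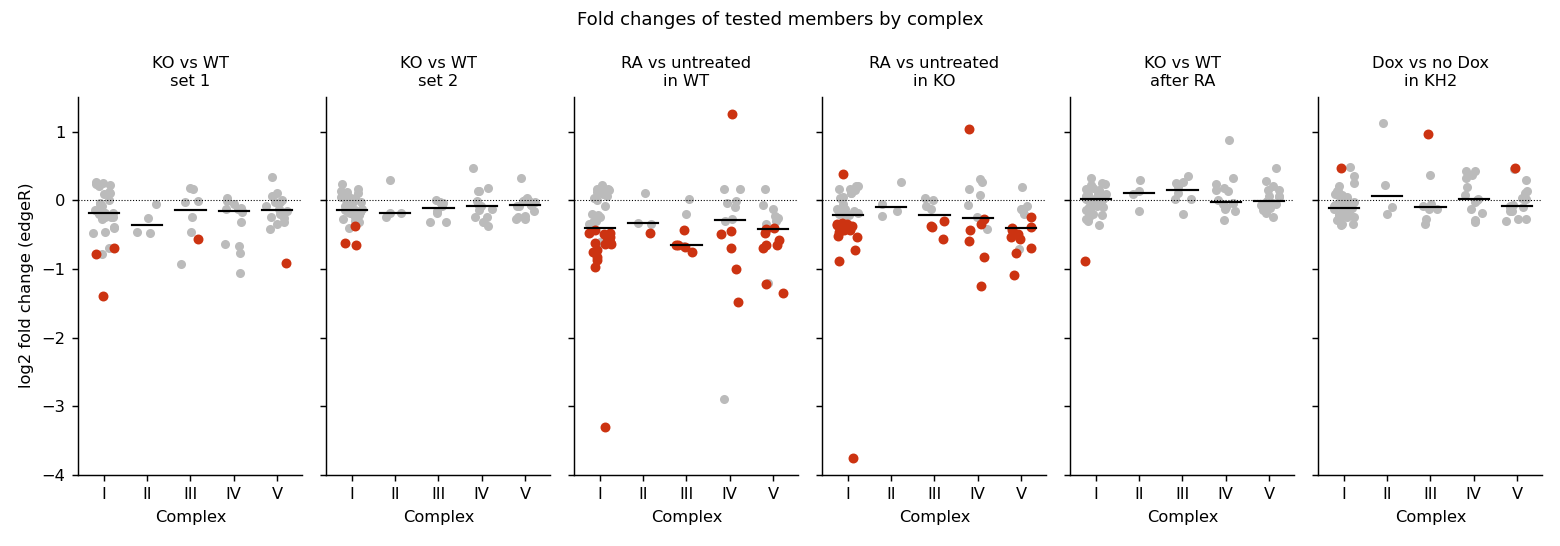
Log2 fold change (y axis) of each tested member by complex (x axis) in 6 comparisons, with called members in red, others in grey and the median of each complex as a black bar. In both RA panels most called members lie below 0, and Ndufa4l2 is lowest at -3.30 in WT and -3.75 in KO.

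After RA, KO and WT cells differed in 1 member of 78, Ndufc2, against 0.109% of genes that fell. It was at 109.9 CPM in the WT RA sample and at 53.3 and 68.0 CPM in the KO RA samples (log2 fold change -0.88, SE 0.18, edgeR adjusted p = 0.0183), and it was not called without 2h (-0.72, adjusted p = 0.363), without 2i (-1.05, adjusted p = 0.0621) or with each library as a sample (-0.86, adjusted p = 0.318). Ndufc2 was also not called for RA in either genotype. Ndufs7, the other member called in each set before RA, was at 36.2 CPM in WT and 42.7 and 40.3 CPM in KO after RA (0.18, SE 0.22, adjusted p = 0.968).

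Tissue isoforms did not all move with their common partners. Cox6b2, known as the testis form of a complex IV subunit, rose after RA from 21.6 and 24.9 CPM to 57.3 CPM in WT (log2 fold change 1.26, SE 0.21, edgeR adjusted p = 1.33e-05), and from 37.2, 37.6, 31.0 and 22.8 CPM to 69.1 and 66.5 CPM in KO (1.04, SE 0.14, adjusted p = 5.12e-07). The common form Cox6b1 stayed at 407.0 to 459.3 CPM after RA, against 353.5 to 468.5 CPM before, and was not called. The share of Cox6b2 in the pair was 5.14% (mean, n = 2) in set 2 WT, 7.03% (n = 4) in set 2 KO, 12.3% in the WT RA sample and 12.9% (n = 2) in KO RA samples, and the RA samples lay above all untreated set 2 samples. In KH2 cells, another line, it was 13.3% (n = 2) without Dox. Cox7a1, the muscle form, went the other way, from 24.5 and 23.9 to 8.71 CPM in WT (-1.48, SE 0.35, adjusted p = 0.000864) and from 16.5 to 22.5 CPM to 5.81 and 11.5 CPM in KO (-1.25, SE 0.24, adjusted p = 7.70e-05), while Cox7a2 fell by 0.27 in KO and was not called in WT. The ubiquitous Cox6a1 and the supercomplex factor Cox7a2l were not called in either.

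Ndufa4l2, a paralog of Ndufa4 known as a target of hypoxia-inducible factor, was low in R1 cells and fell after RA. It was at 9.03 and 7.29 CPM in set 2 WT and had 3 counts after RA, a ratio of 0.103 with an exact 95% counting interval of 0.0208 to 0.309. In KO it was at 11.8, 9.55, 7.42 and 5.94 CPM before and had 1 and 5 counts in the RA samples (ratio 0.0724, interval 0.0261 to 0.162). Its fitted log2 fold changes of -3.30 (edgeR adjusted p = 0.000337) and -3.75 (adjusted p = 2.79e-07) depend on the prior count. Ndufa4 was not called (94.8 and 97.2 CPM in WT before RA, 96.4 CPM after). The levels of Ndufa4l2 differed between lines and sets, with 66.2 to 73.1 CPM in the KH2 samples and 0.627 to 3.27 CPM in set 1, and its share of the pair was 43.0% (mean, n = 2) in KH2 cells without Dox and 0.809% (n = 2) in set 1 WT. These line and set differences are side by side and were not tested.

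**Figure D5:**
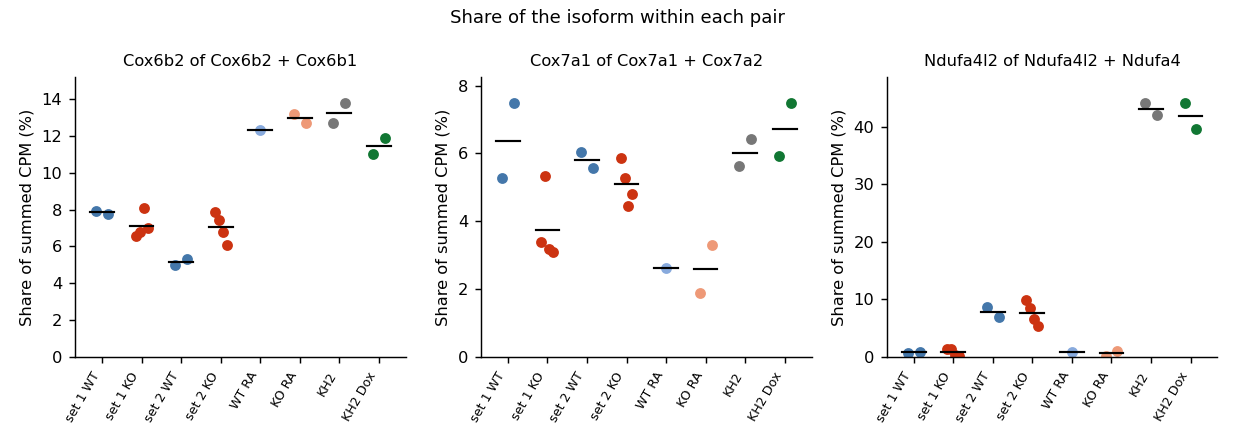
Share of the first isoform in the summed CPM of each pair (y axis, %) in each sample by group (x axis), where points are samples and the black bar is their mean. The Cox6b2 share is 12.3% or more in all 3 RA samples, and the Ndufa4l2 share is far higher in KH2 cells than in any R1 sample.

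The RA samples also differ in cell markers. The 10 ESC markers summed to 2812.3 to 3137.9 CPM in untreated set 2 WT and 293.7 CPM in the WT RA sample, and to 341.9 to 349.3 CPM in KO RA samples. The 22 fibroblast markers, several of which mesenchymal derivatives of ESCs also express, summed to 7992.3 CPM in WT RA (21 of 22 at 1 CPM or more, Lum at 0) and 7853.3 to 9449.8 CPM in KO RA (21 of 22), and the 13 extraembryonic endoderm markers to 4553.9 CPM and 6431.4 to 6514.1 CPM. The part of these shifts in the members' fall was not tested. The summed members stood at 14243.0 CPM in WT RA against 18199.4 ± 347.8 (SD, n = 2) in untreated WT, and at 14501.5 ± 214.0 (n = 2) in KO RA against 17249.4 ± 828.3 (n = 4) in untreated KO.

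In KH2 cells Dox was followed by changes in few members. Of 78 tested, 3 rose, against 0.896% of 12723 genes, and 0 fell, against 0.904%. At an unadjusted p under 0.05, 12 members (15.4%) were higher and 9 (11.5%) lower, against 7.76% and 7.66% of genes. DESeq2 called 2 higher, Ndufb3 and Cox8a, and 0 lower. Of the other members called by edgeR, Atp5j did not pass DESeq2 (adjusted p = 0.0699), and Uqcrc2 was given no adjusted p by its filter. Ndufb3, of the complex I membrane arm, was at 282.4 and 277.2 CPM without and 360.0 and 413.7 CPM with Dox (log2 fold change 0.47, SE 0.11, edgeR adjusted p = 0.0275). Atp5j was at 97.9 and 92.8 CPM without and 126.9 and 137.4 CPM with Dox (0.47, SE 0.12, adjusted p = 0.0447), and the core protein gene Uqcrc2 at 13.3 and 6.85 CPM without and 20.3 and 19.3 CPM with Dox (0.97, SE 0.26, adjusted p = 0.0484). The groups did not overlap for any of these 3. Each lost its call when 1 of several samples was left out. None of the 3 was called without the second untreated sample (adjusted p from 0.391 to 0.561), Ndufb3 and Atp5j were not called without the first untreated or the second Dox sample, and Uqcrc2 was not called without the first Dox sample (adjusted p = 0.0945). The 3 have GC contents of 37.3, 38.9 and 39.7% in their last 300 bases, and over the 78 members the Dox effect went with GC content (r = -0.42, and -0.15 over 11396 genes), whose part was not tested. The member sum was 21869.6 ± 1551.1 CPM (SD, n = 2) without and 21568.3 ± 281.1 (n = 2) with Dox. The ESC markers summed to 4071.5 to 4210.9 CPM without and 4867.4 to 5090.8 CPM with Dox, the fibroblast markers to 1665.2 to 1815.1 and 1878.3 to 2288.9 CPM (20 of 22 at 1 CPM or more in each, Lum at 0 with Dox), and the endoderm markers to 916.1 to 968.1 and 737.6 to 819.9 CPM. These sums did not overlap between the groups, but they do not stand for each list as a whole. Of 20 tested fibroblast markers 5 fell and 1 rose, with a median log2 fold change of -0.45. The 1 that rose was Ccn2, at 548.8 and 757.8 CPM without and 1514.1 and 1262.6 CPM with Dox. Of 10 tested endoderm markers 1, Sparc, fell and 0 rose, with a median of 0.03. The part of these marker shifts in the members' differences was not tested.

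Set 1 and set 2 differ in the level of some members whatever the genotype. Cox7c was at 523.3 and 564.4 CPM in set 1 WT and at 57.1 and 81.2 CPM in set 2 WT, Cox5b at 128.2 and 169.9 against 42.6 and 46.6 CPM, Sdhd at 120.6 and 152.5 against 6.77 and 25.8 CPM, and Atp5h at 197.5 and 202.2 against 68.0 and 73.6 CPM. In the other direction Ndufb8 was at 189.8 and 243.7 CPM in set 1 WT and 495.2 and 498.5 CPM in set 2 WT. These differences were not tested, and a difference of the cells and one of the preparation cannot be told apart.

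The other genes of the pathway are read against the same shares of all genes, 8.52% lower in KO over both sets, and 22.5% and 26.8% lower after RA in WT and KO. Of the companions, Cox4i1, the main subunit 4 of complex IV, was at 289.5 ± 5.54 CPM (SD, n = 2) in set 1 WT and 245.9 ± 14.4 (n = 4) in KO, the hypoxia form Cox4i2 at 1.15 CPM or less on average in each group, and the smallest adjusted p of the 7 tested companions over both sets was 0.161, for Cox4i1. After RA in KO 3 of 8 tested companions fell and 2 rose, against 28.3% of genes that rose. Cox4i1 was among those that rose (log2 fold change 0.25, SE 0.10, edgeR adjusted p = 0.0411), with -0.05 in WT. Ndufab1, the acyl carrier protein of complex I, fell after RA in KO (-0.46, SE 0.14, adjusted p = 0.00689) and was not called in WT (-0.25, adjusted p = 0.317). Atpif1, the inhibitor of ATP synthase, was not on that list and was chosen after its values were seen. It fell in KO over both sets (-0.29, SE 0.09, adjusted p = 0.0287) and after RA (-0.60, SE 0.14, in WT and -0.44, SE 0.10, in KO), and in set 2 its KO samples (242.1 to 264.5 CPM) lay below its WT samples (302.8 and 310.2 CPM). Usmg5, also missed by the spelling rule, averaged 237.7 CPM in WT and 195.8 CPM in KO (SD 94.4) in set 1. In set 2 it averaged 274.3 CPM in WT and 300.4 CPM in KO, and after RA 291.8 CPM in WT and 341.6 CPM in KO. Cyc1, cytochrome c1 of complex III, fell after RA, by 1.03 (SE 0.17, edgeR adjusted p = 1.71e-05) in WT and 0.63 (SE 0.12) in KO on the log2 scale, and Etfdh, which feeds electrons from fatty acid oxidation to ubiquinone, rose by 1.42 (SE 0.32) and 1.47 (SE 0.23). Of 49 tested assembly factors 1 fell in KO over both sets (Ndufaf1, -0.58, adjusted p = 0.0461), and after RA 13 of 52 fell and 2 rose in WT, and 15 fell and 3 rose in KO, near the shares of all genes. Tmem70, an assembly factor of ATP synthase and complex I, was among those that rose (1.47 in both). Of the mitochondrial ribosomal proteins 13 of 72 tested fell and 1 rose in KO over both sets, a larger share than that of all genes, with Mrpl3 lowest in p (-0.72, SE 0.12, adjusted p = 9.92e-05), and after RA 42 of 75 fell in WT and 44 in KO, with 1 rise each. Of 22 import genes 1 fell in KO, and after RA 14 fell in WT and 13 in KO. Of 19 tricarboxylic acid cycle and pyruvate dehydrogenase genes 1 fell in KO (Idh3b, -0.31, adjusted p = 0.0497), and 6 fell and 3 rose in WT and 8 fell and 1 rose in KO after RA.

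Regulators of mitochondrial genes were the next list, read against the same shares of all genes. Over both sets 6 of 17 tested fell in KO cells. Esrrb, a nuclear receptor of the ESC network that also acts on mitochondrial genes, had a log2 fold change of -1.19 (SE 0.13, edgeR adjusted p = 1.09e-06), Epas1 (HIF-2α) of -0.82 (SE 0.11, adjusted p = 7.26e-06), Sirt1 of -0.61 (SE 0.13), Gabpa, a subunit of the ETS factor GABP, of -0.53 (SE 0.13, adjusted p = 0.00684), Sirt3 of -1.18 (SE 0.35, adjusted p = 0.0183) and Pprc1 of -0.34. Sirt3 was near the floor, at 1.25 to 3.27 CPM in set 1 KO and 1.47 to 2.97 CPM in set 2 KO samples. Esrrb, Epas1 and Sirt1 were also called in each set alone. Gabpa (edgeR adjusted p = 0.1 in set 1 and 0.06 in set 2) and Pprc1 (0.344 and 0.126) were called in neither. In set 2 alone Sirt3 was not called (edgeR adjusted p = 0.0927). After RA 9 of 17 fell and 1 rose in WT, and 10 fell and 2 rose in KO. Nrf1 itself fell by 0.53 (SE 0.18) in WT and 0.60 (SE 0.13) in KO, and Tfam, the mitochondrial transcription factor, by 0.74 and 0.80 on the log2 scale. Epas1 was the 1 regulator whose RA effect differed between the genotypes (1.89, SE 0.22, adjusted p = 4.82e-05). It stood at 33.0 CPM in the WT RA sample and 78.5 and 81.5 CPM in KO RA samples. Of the genes for mitochondrial DNA maintenance and transcription, Ssbp1, which binds single-stranded mitochondrial DNA, fell in KO over both sets (-0.69, SE 0.19, adjusted p = 0.0187), fell after RA (-1.11 and -0.93) and rose with Dox in KH2 cells (0.69, SE 0.13, adjusted p = 0.00581).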

How the data were processed

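RNA of 23 QuantSeq 3′ libraries from R1 and KH2 mouse ESCs was analysed. The deposited files hold raw gene counts. Per the file headers, featureCounts 1.6.0 assigned the reads to genes of Ensembl 97 (GRCm38), with no strand option set. The submitters' processing notes name STAR 2.5.4b, Subread 2.0.0 and mm10. No source used here describes trimming.

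Counts of libraries with 1 title code were summed into 19 samples. The 179 genes without a symbol were kept under their identifiers. Counts were fitted with edgeR 4.0.16 (limma 3.58.1, R 4.3.3) by the quasi-likelihood test with TMM scaling and the filterByExpr filter (minimum count 10, minimum total 15), and p-values were adjusted by Benjamini-Hochberg over all genes tested (threshold 0.05). DESeq2 1.42.0 was an alternative, as were no filter, libraries as samples, sums per line and set, a replicate block and leaving out each sample. For RA in KO, a further alternative took untreated KO1 alone as the control. Untreated R1 samples of both sets shared 1 fit with set as covariate, the 9 set 2 samples shared 1 fit for RA, and the 4 KH2 samples had their own. The fits by set 2 sub-batch, a split drawn from the counts themselves, were added after seeing the data. Counting intervals are exact, at 95%, and cover counting error only. The test scripts were tested on simulated data. Python 3.11.15, pandas 2.3.3, numpy 2.4.6, scipy 1.17.1 and matplotlib 3.10.9 were used for summaries and figures.

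Members were named with values if called, up to 12 per comparison by smallest adjusted p, if they had the highest or lowest mean level of their complex, or if they belong to an isoform group. Called genes of other lists were named up to 4 per list and comparison. Further members were chosen after their values were seen. The members and the gene and marker lists were chosen with earlier results of these data known.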

Additional observations from a re-analysis of the deposited data

Results flagged for a closer look

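A sample was listed here when, in a group of 4, its gap to the nearest other sample was large for the group's range by Dixon's 95% value, which chance exceeds in about 1 of 20 groups. Among the set 1 KO samples, 1d was apart in Ndufb3 (145.0 CPM, others 208.0 to 218.8), Cox7a1 (25.4 CPM, others 12.5 to 13.1) and Ndufb8 (302.3 CPM, others 203.5 to 217.8), and 1f in Ndufc1 (165.0 CPM, others 131.9 to 137.3). Over all 77 tested members 1d was apart on the low side in 2 and on the high side in 3, against 0.904% and 1.87% of all genes. Among the set 2 KO samples, 2c was apart in Ndufv2 (105.4 CPM, others 84.4 to 87.8), and 2f in Cox8a (327.4 CPM, others 438.1 to 458.4) and in the summed level of complex I (4388.8 CPM). The other members apart by this rule were Cox5a and Ndufa11 in 1d, Atp5h in 1f, Atp5s in 1c, Ndufb2 in 2d and Atp5mpl in 2f. Sample 2f is 1 library of sub-batch A, while 2d and 2e sum libraries of both sub-batches. The sub-batch A library of 2e was lower still, at 318.9 CPM for Cox8a and 4171.5 CPM for complex I. That of 2d was not low, at 444.6 CPM for Cox8a and 4766.4 CPM for complex I, and the part of the sub-batch was not tested.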

How the results depend on the processing

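No named member changed direction under any alternative run. Of the alternative values of named members, 540 stayed on their side of the threshold and 97 lost the call. Over both sets the count of called members (11) was 4 with counts summed per line and set (1445 genes called in all, against 2230), and 4 to 13 when 1 sample was left out. In set 1 the count (5) was 3 by DESeq2, and 1 to 8 when 1 sample was left out. In set 2 the count (3) was 6 with sub-batch as covariate, 1 in sub-batch A alone and 7 in sub-batch B alone, all added after seeing the data, and 1 to 10 when 1 sample was left out. The RA counts (37 in each genotype) were 32 to 40 in WT and 24 to 38 in KO when 1 sample was left out. After RA the single call of KO against WT was lost with every library as its own sample (0 members, 8 genes against 58), and the count was 0 to 1 when 1 sample was left out. The counts for the differences between effects were 0 to 0. In KH2 cells the count (3) was 1 to 4 when 1 sample was left out, and DESeq2 called 127 genes against 229. Where an arm was left with 1 sample, that sample was assumed to vary like the other groups. The causes of these shifts were not tested.

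With the replicate block, KH2 cells had 15 called members (11 higher and 4 lower, 724 genes), over both sets there were 8, in set 1 there were 4 and in set 2 there were 2 (447 genes against 1165). The replicate numbers share only a number: same-numbered samples correlated at 0.0457, -0.144 and -0.0913 in set 1, and at 0.0355 in KH2 cells, so these counts are no measure of a stronger or weaker effect.

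Without TMM scaling the summed log2 ratio of WT RA to untreated WT was -0.28 for complex I, -0.30 for II, -0.26 for III, -0.23 for IV, -0.38 for V and -0.31 for all members. The share of member promoters with the YY1 motif was 1.4% in the 250 bases before the start alone, since 8 of its matches lie after the start. With set 1 depths from 806412 counts, members near 3.72 CPM or below could not be told from 0 there.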
